A study of Mus musculus with 10 samples.

Results

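The proteasome genes described here are those whose platform gene symbol begins with Psma, Psmb, Psmc, Psmd, Psme, Psmf or Psmg, without the immunoproteasome subunits Psmb8, Psmb9 and Psmb10. The rule took 79 of 41174 probes and 47 of 19532 named genes. Of these genes, 16 encode the core particle, 17 the regulatory particle, and 14 are assembly chaperones, activators, an inhibitor or genes that only share the naming. Skin from Tsk2 mice, a tight-skin model of scleroderma known to carry a mutation in Col3a1, was profiled on 2-colour microarrays. At 4 months of age there were 4 skin samples on 5 arrays, and at 1 month there were 4 skin samples on 5 arrays. The labels give the genotype as Tsk2 for every sample, call the mice transgenic in the titles and Tsk2/+ in the series text, and state no strain, sex, promoter or number of animals. Skin was in Cy3 and a cell line reference named UMR was in Cy5 on all 10 arrays, and wild-type skin was not analysed here. Age was therefore the only contrast between groups, and it cannot be told apart from the ID numbers in the titles, of which 3 occurred at 4 months, 2 at 1 month and 0 at both ages.

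The 26S proteasome degrades proteins tagged with ubiquitin chains. Its 20S core is a barrel of alpha rings, which gate the entry, and beta rings, which carry the catalytic sites. The 19S regulatory particle caps the core: its ATPases unfold and thread the substrate, and its non-ATPase subunits bind and remove ubiquitin. Other activators (PA28 and PA200) and an inhibitor (PI31) can bind the core instead, and separate chaperones assemble the core and the base of the regulatory particle. Subunit genes are known to be induced together by the transcription factor Nrf1 (Nfe2l1) when proteasome activity is low, and proteasome and ubiquitin ligase genes are known to be induced in wasting skeletal muscle.

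Values below are read as log2 ratios of skin over reference after the sign of the deposited ratios was turned. That direction is likely, not stated: the epidermal differentiation list had array medians of 3.90 to 5.76 and the skeletal muscle list 4.11 to 6.59 after turning, above 0 on all 10 arrays. If the numerator were the other dye, each higher value would be a lower one of the same size. The arrays held 21665 to 30425 measured values each, with 26.1% to 47.4% of probes at an exact 0, which was read as not measured, and 66 to 73 proteasome probes were measured per array. In bulk skin, fewer cells of a type and less RNA per cell cannot be told apart. The labels do not name the animals, and p-values here cover the spread between these samples alone, which may be technical. 1-month sample 2 stood apart from the other 1-month samples: it was the highest or lowest of its age in 25 of the 31 core and regulatory particle genes (80.6%), against 67.1% of all genes.

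The clearest age differences among the proteasome genes lay outside the core and regulatory particles. The 95% interval of the difference stayed within 2-fold for 9 of 14 tested core genes and 12 of 17 regulatory genes. These intervals do not show equal levels at the 2 ages. Of the core genes, 10 had differences below 0 and 4 above it, with a median of -0.30. Of the 45 genes with enough values to test, 1 was higher at 4 months (Psme3, a nuclear activator) and 1 was lower (Psmc3ip, a recombination cofactor that is not a subunit), by limma with Benjamini-Hochberg adjustment over 13501 genes. Over all genes, 7.25% passed the threshold of 0.05, 4.19% higher and 3.06% lower. None of the 31 core and regulatory particle genes passed in limma. An unadjusted p under 0.05 was found for 1 of them, Psmd3, against 24.3% of all genes. With the muscle markers as a covariate 6 of the 31 had an unadjusted p under 0.05, and again none passed. In that fit 1.38% of all genes passed, and the share of all genes at the unadjusted cut was not counted. Psma8 (the testis form of an alpha subunit) and Psmb11 (the thymus beta subunit) were not measured in enough samples.

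**Figure D1:**
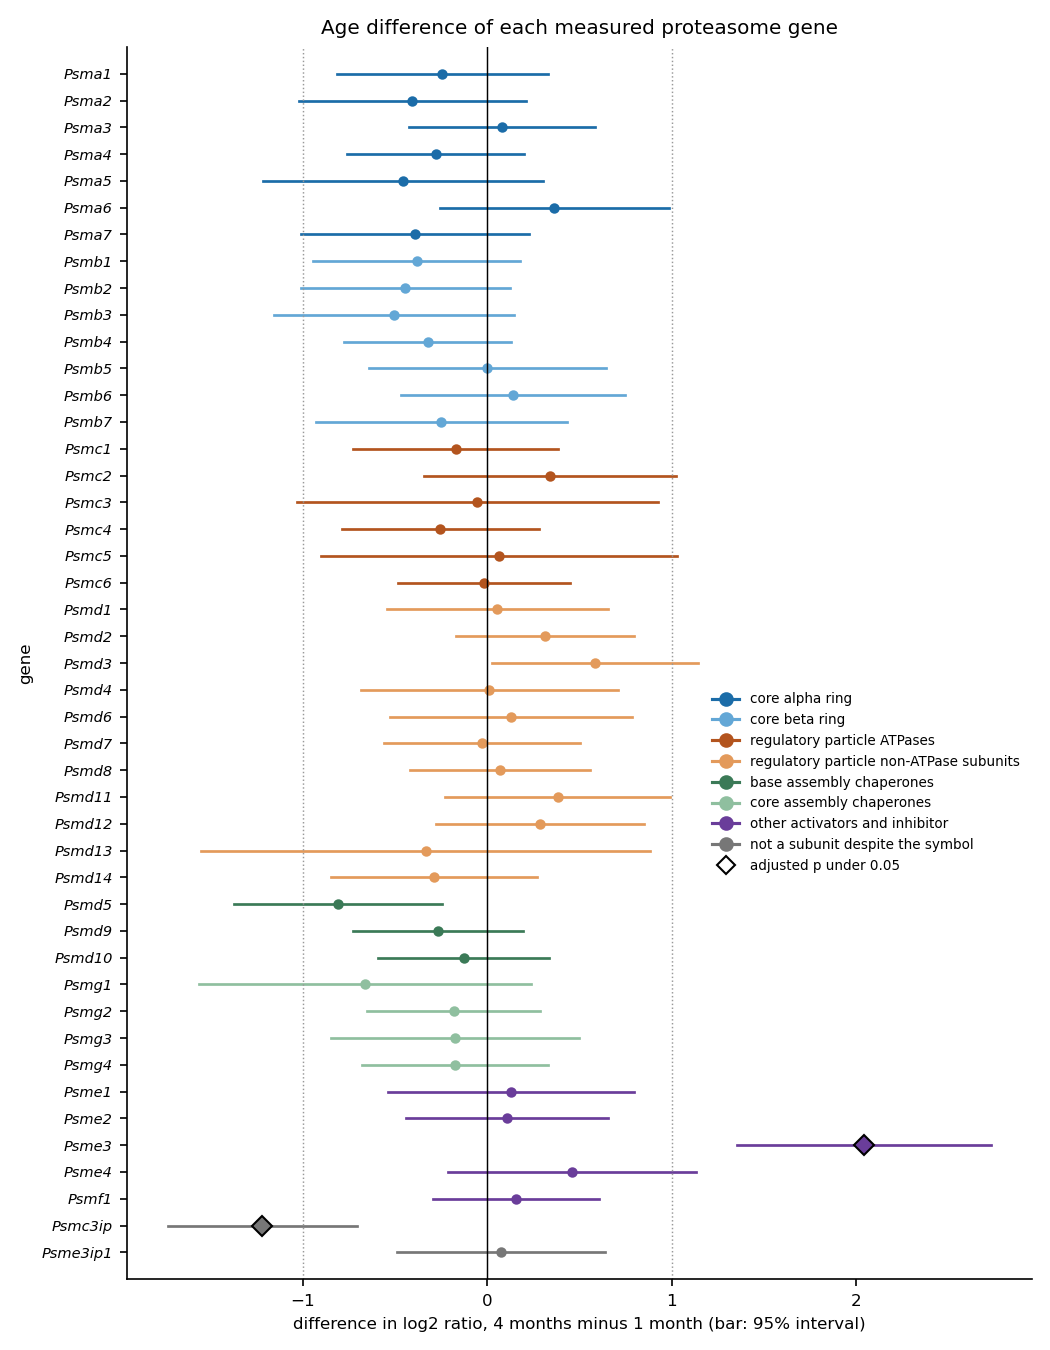
Each point is the difference in log2 ratio between 4 months and 1 month for 1 of the 45 tested genes, with its 95% interval, ordered by role. Psme3 at 2.04 and Psmc3ip at -1.22 lie farthest from 0, while the core and regulatory particle genes lie between -0.50 and 0.58.

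Psme3 encodes PA28 gamma, the nuclear member of the PA28 family, which opens the core for proteins without ubiquitin tags. It had log2 ratios of 2.07, 2.62, 2.60 and 1.42 in the 4-month samples, against 0.31, 0.00, -0.06 and 0.05 in the 1-month samples. The ages did not overlap, and all 1-month values sat near the reference level. The mean was 2.18 ± 0.57 at 4 months and 0.08 ± 0.16 at 1 month (SD, n = 4 each). The fitted difference was 2.04 with an SE of 0.31 and a 95% interval of 1.36 to 2.73 (limma adjusted p = 0.00916), or 4.12-fold. It ranked 200th from the top among 13501 genes. The gene rests on a single probe, and its arrays of the same sample gave 2.57 and 2.67 in 4-month sample 2, and 0.27 and 0.35 in 1-month sample 1. An exact permutation of the ages over 8 samples, two-sided and chosen after the values were seen, gave p = 0.0286, the smallest that 4 against 4 allow. Groups of 4 without overlap always give this value, so it adds nothing to the lack of overlap. Samples that share an ID number were permuted as separate samples. Over the 5 ID numbers the exact permutation p was 0.1, also the smallest possible.

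The Psme3 call was lost when age was fitted beside the mean of the skeletal muscle markers (1.88, limma adjusted p = 0.0578) or of the cell division markers (1.18, adjusted p = 0.92), and with means per ID number (1.96, adjusted p = 0.091). Of all genes, 1.38% passed in the muscle fit and 0% with means per ID number. The muscle list had sample means of 4.79 to 6.27 at 4 months and 3.69 to 5.17 at 1 month, with 5 of 27 genes higher. The cell division list had sample means of -3.11 to -1.92 at 4 months and -1.06 to -0.49 at 1 month, with 16 of 19 tested genes lower. The hair matrix list lay between 0.16 and 2.13 at 4 months and between 2.57 and 3.66 at 1 month, with 5 of 12 genes lower. No gene of the epidermal, fibroblast, adipocyte, macrophage, T cell or B cell lists passed in limma, though 5 of 10 macrophage genes, 2 of 11 fibroblast genes and 1 of 8 adipocyte genes had an unadjusted p under 0.05. The macrophage list had sample means of 1.72 to 3.31 at 4 months and 1.56 to 2.22 at 1 month. Among all genes, 4.19% passed as higher and 3.06% as lower, and 24.3% had an unadjusted limma p under 0.05. The part of these cell types in the Psme3 difference was not tested beyond these fits, and in the cell division fit none of the 13501 genes passed. The gene next to Psme3 in the RefSeq table, Aoc2 (an amine oxidase), lies 103 bases away and had a difference of -1.11 (limma adjusted p = 0.0967).

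The other activators did not pass the test. Psme1 and Psme2, which form the interferon-induced PA28 alpha and beta ring, had differences of 0.13 and 0.11 (limma adjusted p = 0.845 and 0.843). Psme4, which encodes PA200, had log2 ratios of 0.86, 1.78, 1.17 and 0.89 at 4 months, against 0.37, 0.34, 0.99 and 0.99 at 1 month. Its groups overlapped, and the difference was 0.46 with an SE of 0.30 (limma adjusted p = 0.392). Psmf1, the PI31 inhibitor, had a difference of 0.16 (adjusted p = 0.693). The difference between Psme3 and these activators was not itself tested.

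Psmc3ip (HOP2) works with recombinases in meiosis and takes its name from binding Psmc3. It had log2 ratios of -2.09, -1.70, -1.64 and -1.58 in the 4-month samples, against -0.51, -0.26, -0.69 and -0.73 in the 1-month samples. Every 4-month value was below every 1-month value. The fitted difference was -1.22 with an SE of 0.23 and a 95% interval of -1.73 to -0.71 (limma adjusted p = 0.0174), and its 2 probes gave -1.24 and -1.19. The exact permutation p was 0.0286 over the 8 samples and 0.1 over the 5 ID numbers, each the smallest possible. Groups of 4 samples without overlap always give the first of these values. The call was lost without 1-month sample 1 (-1.26, adjusted p = 0.0671), with means per ID number (-1.23, adjusted p = 0.116) and with the cell division markers as a covariate (-0.40, adjusted p = 0.956). Of all genes, 1.22% passed without 1-month sample 1, and 0% with means per ID number or the cell division covariate. In the RefSeq table Psmc3ip overlaps Mlx, which had a difference of -0.31 (adjusted p = 0.488). Psme3ip1, which is named for binding PA28 gamma, had a difference of 0.08 (adjusted p = 0.894).

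**Figure D2:**
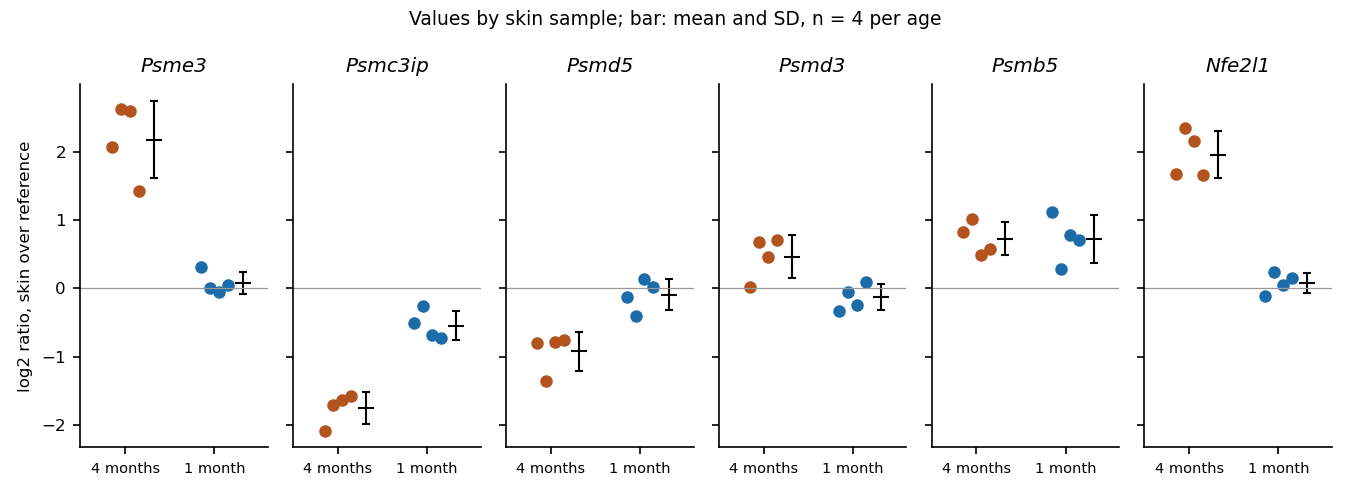
Log2 ratios of skin over reference for single skin samples, 4 months left of 1 month, with the mean and SD of 4 samples per age, for Psme3, Psmc3ip, Psmd5, Psmd3, Psmb5 and Nfe2l1. Psme3 values at 4 months (1.42 to 2.62) all lie above those at 1 month (-0.06 to 0.31), and Psmc3ip values at 4 months (-2.09 to -1.58) all lie below those at 1 month (-0.73 to -0.26).

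In the core particle, no gene passed the test among the 14 tested, and the lowest limma adjusted p was 0.325. The differences ran from -0.50 (Psmb3) to 0.37 (Psma6), 10 below 0 and 4 above it, with a median of -0.30 against 0.03 over all genes. The median over the core genes within each sample was between -0.02 and 0.05 at 4 months and between 0.08 and 0.45 at 1 month. These sample medians did not overlap, but each summarises genes measured on the same array. Within each ring alone the sample medians overlapped. They were -0.42 to 0.01 at 4 months against -0.27 to 0.34 at 1 month for the alpha ring. For the beta ring they were 0.02 to 0.32 against 0.28 to 0.52. The sample means overlapped for the alpha ring but not for the beta ring (0.11 to 0.27 against 0.38 to 0.55). For 9 of the 14 genes the 95% interval of the difference stayed within 2-fold in either direction. The core median was -0.13 when cell division markers were a covariate.

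The alpha ring genes, whose products form the outer rings and the gate, had a median difference of -0.28 over 7 tested genes, and the beta ring genes had -0.32 over 7. Psmb5, the chymotrypsin-like subunit, had log2 ratios of 0.83, 1.01, 0.49 and 0.58 at 4 months, against 1.12, 0.28, 0.79 and 0.70 at 1 month. The ages overlapped fully, with a difference of 0.00 and an SE of 0.29 (limma adjusted p = 0.997; 95% interval -0.64 to 0.64). Psmb6, the caspase-like subunit, had a difference of 0.14 (adjusted p = 0.809), and Psmb7, the trypsin-like subunit, had -0.25 (adjusted p = 0.680). In Psmb7, 1-month sample 2 was at 0.10 while the other 1-month samples were between 0.84 and 0.89.

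Psmb3 and Psmb2 are beta subunits without a catalytic site. Psmb3 had 0.08, -0.00, 0.67 and 0.16 at 4 months, against 0.38, 1.12, 0.77 and 0.59 at 1 month, and the difference of -0.50 did not pass the test (limma adjusted p = 0.330). Psmb2 had 0.13, 0.11, -0.41 and -0.00 at 4 months, against 0.67, 0.16, 0.52 and 0.30 at 1 month, with a difference of -0.44 (adjusted p = 0.325). All 4 of its 4-month values were below its 1-month values. Groups without overlap were found in 5 of the 45 tested proteasome genes (Psme3, Psmc3ip, Psmd5, Psmd9 and Psmb2), against 21.1% of all genes tested. Of the 5, 1 lay higher at 4 months (10.9% of all genes) and 4 lay lower (10.2% of all genes).

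**Figure D3:**
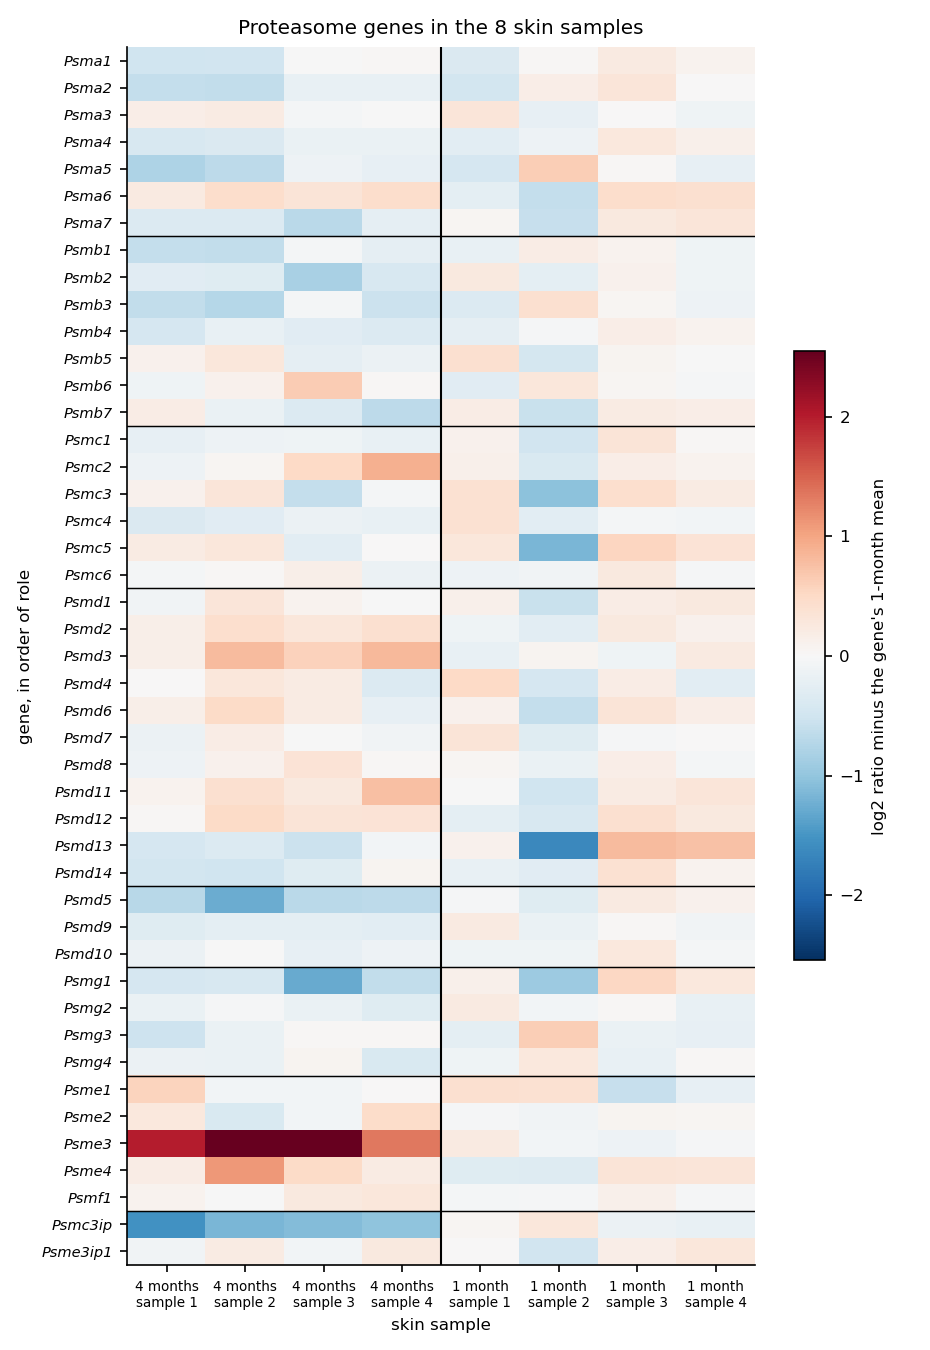
Log2 ratio of each tested gene in each of the 8 skin samples, as the distance from that gene's 1-month mean, with 4-month samples left of 1-month samples and genes in order of role. Psme3 is the deepest high block at 4 months, and 1-month sample 2 differs from the other 1-month samples across the regulatory particle genes.

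In the regulatory particle, the 17 genes had differences between -0.33 (Psmd13) and 0.58 (Psmd3), 10 above 0 and 7 below it, with a median of 0.06. After quantile normalization 7 lay above 0 and 10 below it. For 12 of the 17 the 95% interval stayed within 2-fold. The ATPases, which unfold the substrate, had a median of -0.03 over 6 genes. The non-ATPase subunits had a median of 0.07 over 11 genes. The median over regulatory genes within a sample was between 0.22 and 0.46 at 4 months, and between -0.25 (1-month sample 2) and 0.52 at 1 month. The sign of that median was not stable: it was -0.13 without 1-month sample 2 and -0.08 after quantile normalization, against 0.43 with the muscle markers as a covariate.

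Psmd3, a scaffold subunit of the lid, had log2 ratios of 0.03, 0.68, 0.46 and 0.70 in the 4-month samples, against -0.33, -0.06, -0.24 and 0.10 in the 1-month samples. The groups overlapped by 1 sample of each age. The difference was 0.58 with an SE of 0.25 and did not pass (limma unadjusted p = 0.0421, adjusted p = 0.187). Psmd13, another lid subunit, showed the part of 1-month sample 2: it had -0.19, -0.11, -0.31 and 0.18 at 4 months, against 0.34, -1.40, 1.03 and 0.98 at 1 month. The difference of -0.33 had an SE of 0.54 (adjusted p = 0.768).

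All 7 assembly chaperones had differences below 0, and none passed the test. Psmg3 lay above 0 without 1-month sample 2 or with the cell division covariate, and Psmg1 with the muscle covariate. Psmd5, which holds ATPases during assembly of the base, had log2 ratios of -0.80, -1.35, -0.79 and -0.75 in the 4-month samples, against -0.13, -0.40, 0.13 and 0.02 in the 1-month samples. The ages did not overlap, and 4-month sample 2 was the lowest. The mean was -0.92 ± 0.29 at 4 months and -0.09 ± 0.23 at 1 month (SD, n = 4 each), and the difference of -0.81 (SE 0.25) missed the threshold (limma adjusted p = 0.0847). It passed without 4-month sample 4 (-0.88, adjusted p = 0.0451) and with no block for the ID number (-0.83, adjusted p = 0.0325). More genes passed across the whole table in these 2 fits, 16.9% and 15% of all genes, against 7.25% in the fit as reported. The other base chaperones, Psmd9 and Psmd10, had differences of -0.27 and -0.13.

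Psmg1 pairs with Psmg2 to start the alpha ring. It had -0.42, -0.41, -1.28 and -0.62 at 4 months, against 0.13, -0.93, 0.52 and 0.27 at 1 month, so the ages overlapped through 1-month sample 2. Its difference was -0.66 with an SE of 0.40 (limma adjusted p = 0.355). Psmg2, Psmg3 and Psmg4 had differences of -0.18, -0.17 and -0.17.

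The median size of the difference, sign left out, was 0.25 over the 45 genes and 0.39 over all genes. The 95% interval stayed within 2-fold for 30 of the 45 genes (66.7%), against 37.6% of all genes. The same held for 8 of 9 COP9 genes (88.9%), 9 of 12 p97 genes (75%) and 10 of 15 proteasome-bound factors (66.7%). It held for 2 of 12 eIF3 genes (16.7%), 1 of 8 TRiC genes (12.5%) and 3 of 18 genes of the Nrf1 and Nrf2 route (16.7%). The width of an interval depends on its SE, with a median of 0.25 over the 45 genes and 0.31 over all genes. An unadjusted p under 0.05 was found for 4 of the 45 (Psme3, Psmc3ip, Psmd5 and Psmd3), against 24.3% of all genes.

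**Figure D4:**
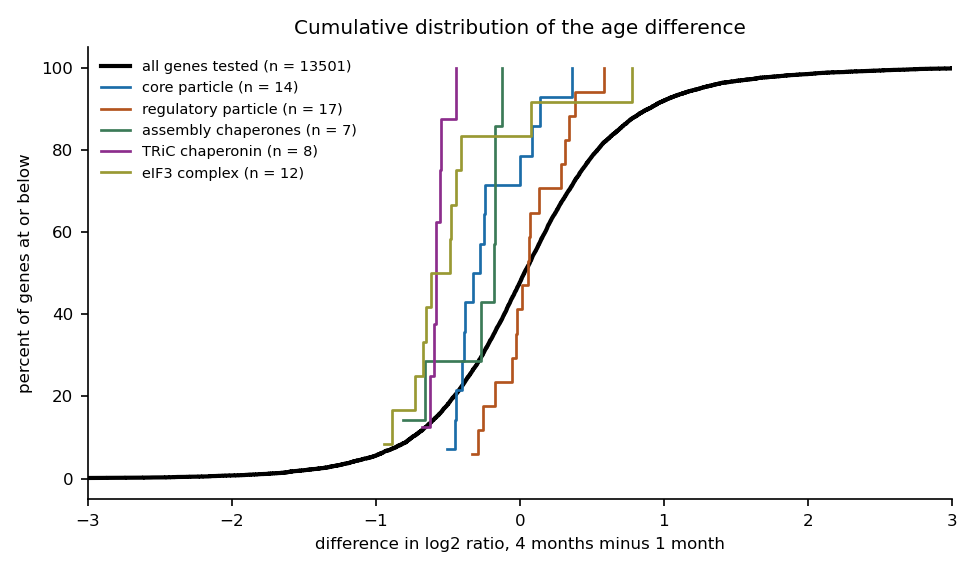
Cumulative percent of genes by difference in log2 ratio, 4 months minus 1 month, for the core particle (14 genes), the regulatory particle (17 genes), the assembly chaperones (7 genes), TRiC (8 genes), eIF3 (12 genes) and all 13501 genes, drawn from -3 to 3. The core curve lies left of the regulatory curve, with medians of -0.30 and 0.06, and both are steeper than the curve of all genes.

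Probes of the same gene did not always give the same sign. Of 19 genes with more than 1 measured probe, 8 had probes on both sides of 0. The 3 probes of Psma3, an alpha subunit, ran from -0.44 to 0.79, and their mean gave 0.08 (limma adjusted p = 0.868). The 3 probes of Psmd12, a lid subunit, ran from -0.08 to 0.53, with a gene value of 0.29. The other 6 had gene values of 0.07 (Psmc5), -0.02 (Psmc6), 0.01 (Psmd4), -0.03 (Psmd7), 0.16 (Psmf1) and 0.08 (Psme3ip1), and none of them passed.

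Partners of the proteasome were taken from lists chosen with earlier results known. In the Nrf1 and Nrf2 route, 3 of 18 genes were higher at 4 months and none lower, against 4.19% and 3.06% of all genes. An unadjusted limma p under 0.05 was found for 7 of the 18, against 24.3% of all genes. Nfe2l1, which encodes Nrf1, had log2 ratios of 1.67, 2.35, 2.15 and 1.66 in the 4-month samples, against -0.10, 0.23, 0.05 and 0.16 in the 1-month samples. The ages did not overlap, and the difference was 1.83 with an SE of 0.25 (limma adjusted p = 0.00753). Mafk, a small Maf partner of these factors, had a difference of 0.96 (adjusted p = 0.0381), and Nqo1, a quinone reductase that Nrf2 induces, had 1.41 (adjusted p = 0.0211). Nqo1 did not pass without 1-month sample 1 (1.37, adjusted p = 0.0867), and Mafk passed without 4-month sample 4 but not without any other single sample (adjusted p up to 0.102). Without 1-month sample 1, 1.22% of all genes passed, and without 4-month sample 4, 16.9%. Nfe2l2, which encodes Nrf2, had 0.06 and did not pass. Of the 18 genes 7 had differences below 0, among them Gclc, a subunit of the glutathione synthesis enzyme that Nrf2 induces, at -1.61 with ages that did not overlap (adjusted p = 0.0836), and Nfe2l3, which encodes Nrf3, at -1.43. The core and regulatory particle genes, known as Nrf1 targets, had medians of -0.30 and 0.06 in these same samples. Over the alternative settings the core median ran from -0.35 to -0.13 and the regulatory median from -0.16 to 0.43. A link between Nfe2l1 and these genes was not tested.

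Of 15 tested receptors, deubiquitinases and shuttle factors that bind the proteasome, none passed in limma and 2 had an unadjusted p under 0.05. The ubiquitin shuttle Ubqln2 had the largest difference in size, 0.76 (adjusted p = 0.129), followed by Zfand5 at 0.52 (adjusted p = 0.384). Fbxo7, the other gene with an unadjusted p under 0.05, had a difference of -0.49 (adjusted p = 0.181). Of 12 tested genes of the p97 unfoldase and its cofactors, none passed and 2 had an unadjusted p under 0.05, with Ubxn6 at 0.82 (adjusted p = 0.0971) and Ubxn7 at -0.67 (adjusted p = 0.126). Of the 6 ubiquitin and activating enzyme genes only Uba6 was tested, at -0.24 (adjusted p = 0.551). Among all genes tested, 24.3% had an unadjusted limma p under 0.05.

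Lists of 3 other multi-subunit complexes were counted in the same fit, of which COP9 and eIF3 are built like the lid. In the COP9 signalosome, which removes Nedd8 from cullins, Cops8 was higher by 0.77 (limma adjusted p = 0.0466) among 9 genes, and the list median was 0.08. In eIF3, a translation initiation complex, Eif3i was lower, with a difference of -0.89 (adjusted p = 0.0428), among 12 tested genes, and the median was -0.55. Of the 12 eIF3 genes, 10 had differences below 0 and 2 above it, and 7 had an unadjusted p under 0.05. The same cut was met by 1 of the 9 COP9 genes. All 8 subunits of the TRiC chaperonin had differences below 0, with a median of -0.58, and none passed in limma while 4 had an unadjusted p under 0.05. The medians stand beside 0.03 over all genes. Among all genes, 4.19% passed as higher and 3.06% as lower, and 24.3% had an unadjusted limma p under 0.05. Without 1-month sample 1 neither Cops8 nor Eif3i passed, at 0.79 for Cops8 (adjusted p = 0.153) and -0.95 for Eif3i (adjusted p = 0.125). Only 1.22% of all genes passed in that fit. Over all 8 fits without a single sample the differences stayed between 0.72 and 0.83 for Cops8 and between -0.96 and -0.80 for Eif3i.

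The 3 immunoproteasome subunits, which replace the catalytic subunits after interferon, did not pass: Psmb8 had a difference of 0.89 (limma adjusted p = 0.182), Psmb9 0.72 (adjusted p = 0.395) and Psmb10 0.32 (adjusted p = 0.478). Psmb8 had an unadjusted p under 0.05, as did 24.3% of all genes. Of 6 tested muscle ubiquitin ligases, 2 were higher at 4 months, against 4.19% of all genes. Fbxo32 (atrogin-1) had log2 ratios of 3.72, 4.97, 5.53 and 3.19 at 4 months, against 0.22, 1.23, 1.25 and 1.24 at 1 month, a difference of 3.25 (adjusted p = 0.0121). Trim63 (MuRF1) had a difference of 2.43 (adjusted p = 0.0138). Both calls were lost with the muscle markers as a covariate (2.37, adjusted p = 0.0655, for Fbxo32, and 2.06, adjusted p = 0.0955, for Trim63) and without 1-month sample 1 (2.90, adjusted p = 0.0516, for Fbxo32, and 2.53, adjusted p = 0.0623, for Trim63). Of all genes, 1.38% and 1.22% passed in these 2 fits.

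Promoter sequences from RefSeq (GRCm38.p6, 250 bases before to 50 after a gene's start) were matched to 39 of the 47 genes and searched on both strands. The antioxidant response element TGACNNNGC, which Nrf1 and Nrf2 bind, was found in 6 of 39 proteasome genes (15.4%), against 14% of all genes in the table and 12.4% of all promoters. CCAAT, the box bound by NF-Y, was found in 15 of 39 (38.5%), against 41.1% of all genes and 37.4% of all promoters. It was in 7 of 12 core genes (58.3%) and 4 of 14 regulatory genes (28.6%). A match describes these letters and is not a shown binding site. The 250 bases before the start are printed for Psme3 and Psmc3ip, which passed the test, and for the catalytic subunit Psmb5. Psmb5 holds an antioxidant response element and had a difference of 0.00. The other genes with this element had differences of 0.14 (Psmb6), -0.02 (Psmc6), 0.29 (Psmd12), -0.27 (Psmd9) and 0.46 (Psme4). A link between the element and the age difference was not tested. Capitals mark CCAAT, read on either strand, or TGACNNNGC. The capitals begin 14 bases before the start in Psme3 (chr11:101315963-101316212, plus strand), 36 in Psmc3ip (chr11:101095436-101095685, minus strand) and 47 in Psmb5 (chr14:54617996-54618245, minus strand).
Psme3: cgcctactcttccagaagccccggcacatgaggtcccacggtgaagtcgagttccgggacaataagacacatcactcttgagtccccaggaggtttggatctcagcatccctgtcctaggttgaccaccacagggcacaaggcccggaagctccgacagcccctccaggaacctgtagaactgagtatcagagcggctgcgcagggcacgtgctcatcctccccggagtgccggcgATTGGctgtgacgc
Psmc3ip: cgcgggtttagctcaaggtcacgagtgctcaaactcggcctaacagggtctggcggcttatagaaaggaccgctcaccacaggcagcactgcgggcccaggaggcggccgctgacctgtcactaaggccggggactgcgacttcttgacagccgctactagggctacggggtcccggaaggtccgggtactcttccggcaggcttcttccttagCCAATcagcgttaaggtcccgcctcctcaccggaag
Psmb5: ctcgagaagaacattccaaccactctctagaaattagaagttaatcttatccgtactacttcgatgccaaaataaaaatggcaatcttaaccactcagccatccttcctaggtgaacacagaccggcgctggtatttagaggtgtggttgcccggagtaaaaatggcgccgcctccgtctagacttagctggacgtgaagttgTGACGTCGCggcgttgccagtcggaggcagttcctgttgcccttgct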

How the data were processed

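Per the labels' protocols, skin RNA came from a fibrous-tissue kit, and 200 ng went into Agilent Quick-Amp labelling. The authors' deposited values are log ratios between dyes, read here as log2. How they corrected background and normalized is not given in the sources used here. Base 2 is likely, not stated: the largest ratio, 11.165 in size, exceeds 11.09, the natural log of a 16-bit scanner's limit. Arrays of a sample were averaged, which left 8 samples. Probes of a gene were averaged, each needing values in 3 samples per age. Where a probe lacked a value in a sample that another probe of the gene covered, an additive fit of probe and sample filled it first. This was so for Psmf1 in 4-month sample 3. Of the probes, 32664 had 1 symbol, and 32524 were matched to RefSeq by gene number. The number of arrays limits the precision.

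Ages were compared with limma 3.58.1 in R 4.3.3 (statmod 1.5.0), with the ID number of the titles as a random block (consensus correlation 0.313) and Benjamini-Hochberg adjustment. The fit was tested on simulated data, where the share of false calls came out above the nominal 0.05 and the block correlation was underestimated; the tolerance of that check was widened after this was seen. Exact permutation tests are two-sided.

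Named genes were those called, the 4 uncalled members with the largest differences, the 3 catalytic subunits, members whose probes differ in sign, and up to 4 called or 2 other genes per list; Psmb2, Psmd13 and other members were named after their values were seen. The members and lists were chosen with earlier results of these data known.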

Additional observations from a re-analysis of the deposited data

Results flagged for a closer look

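A sample that lay far from the other samples of its age was found in 9 of 90 groups of 4 (45 genes at 2 ages) by Dixon's test at the 95% level. Chance gives such a gap in about 1 of 20 groups. In 6 of the 9 the sample was 1-month sample 2. It was the lowest at 1 month in Psmb7 (0.098, the others 0.84 to 0.889), Psmc2 (-0.0525, the others 0.43 to 0.52), Psmc3 (-0.548, the others 0.70 to 0.91), Psmc5 (-0.338, the others 1.11 to 1.37) and Psmd1 (-0.63, the others 0.07 to 0.18). It was the highest in Psmg3 (0.531, the others -0.34 to -0.26).

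The remaining 3 groups involved other samples. Psmd5 was at -1.35 in 4-month sample 2, with the other 4-month samples between -0.80 and -0.75. Psme1 was at 0.389 in 4-month sample 1, with the other 4-month samples between -0.26 and -0.17. Psmf1 was at -0.261 in 1-month sample 3, with the other 1-month samples between -0.44 and -0.42.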

How the results depend on the processing

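Psme3 passed in 18 of 21 alternative settings and Psmc3ip in 17 of 20. The count of proteasome genes higher at 4 months was 0 with means per ID number, the muscle covariate and the cell division covariate. The count lower was 2 with no random block, 0 with means per ID number and the cell division covariate, and 0 to 2 when single samples were left out (2 without 4-month sample 4, 0 without 1-month sample 1). The core median was -0.13 with the cell division covariate and the regulatory median 0.43 with the muscle covariate.

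Among the named genes, signs turned only for differences that did not pass. With means per ID number, Psmb5 was -0.0021 and Psmd4 -0.029. With the ID suffix as a fixed replicate block, Psme3 was 2.04 (limma adjusted p = 0.0195), Psmb5 -0.13, Psmc5 -0.14 and Psmd4 -0.11. The suffixes are not said to pair samples, and 581 genes passed, against 979. With quantile normalization, Psmb5 was -0.096, Psmc5 -0.079 and Psmd4 -0.0091. With the cell division covariate, Psmb5 was -0.61, Psma3 -0.20, Psmc5 -1.13, Psmd4 -0.53 and Psme3ip1 -0.049. With the muscle covariate, Psmg1 was 0.18, Psmb6 -0.31, Psmb7 0.12 and Psmd7 0.18. Psmc6 was 0.0016 with centred arrays, Psmd4 -0.00059 with zeros kept and Psmd7 0.0068 with first arrays only. Leaving out single samples gave -0.18 to 0.19 for Psmb5, -0.012 to 0.25 for Psmb6, -0.018 to 0.20 for Psma3, -0.31 to 0.35 for Psmc5, -0.056 to 0.079 for Psmc6, -0.20 to 0.20 for Psmd4, -0.17 to 0.10 for Psmd7 and -0.063 to 0.17 for Psme3ip1. The cause was not tested.

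Over all genes, 979 passed in the fit as reported. The number was 2022 with no random block, 0 with means per ID number or the cell division covariate, 186 with the muscle covariate, and 157 (without 1-month sample 1) to 2172 (without 4-month sample 4) with single samples left out. An unadjusted limma p under 0.05, found for 4 proteasome genes as reported, was found for 3 with means per ID number, 1 with the cell division covariate, 8 with the muscle covariate (6 of them core or regulatory genes), and 6 each (2 core or regulatory) with the suffix block, with zeros kept and without 1-month sample 2. The share of all genes at this cut was not counted in these settings, so these counts have no background beside them. Among partners, Nfe2l1 passed in 19 of 21 settings, Nqo1 in 17, Trim63 in 17, Fbxo32 in 16 of 20, Mafk and Cops8 in 9, and Eif3i in 8.

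The number of samples, the single probe of Psme3 and the unstated log base, direction and normalization limit these values.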
